A study of Mus musculus with 6 samples.

Results

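Translation factor genes, those that encode the initiation factors (eIFs) and elongation factors (eEFs) of protein synthesis, were taken as all entries whose symbol begins with Eif or Eef followed by a digit. The rule found 64 of the 13724 gene entries in the table. The libraries came from wild type C57Bl6/J mice, warmed in 3 challenges that the labels number. Each challenge gave 1 immunoprecipitate (IP), the RNA bound to ribosomes caught with an antibody against ribosomal protein S6 phosphorylated at sites 244 and 247, and 1 Input, the total RNA, so the 6 libraries form 3 IP and 3 Input. The tissue is named as preoptic neurons, and the anterior hypothalamus was cut from sections 0.5 mm thick, a dissection that also holds glia and vessels. All mice were warmed, so a difference between IP and Input is not tied here to warmth. The labels do not say how many animals stand behind a library, and p-values measure only the spread between these libraries.

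Initiation factors bring the ribosome to a messenger RNA and place it on the start codon. eIF2 carries the initiator tRNA, eIF3 holds the small subunit, and the cap-binding complex eIF4F, built from eIF4E, eIF4G and eIF4A, recruits the message. Elongation factors then deliver each aminoacyl-tRNA (eEF1A), recharge eEF1A with GTP (the eEF1B subunits) and move the ribosome along (eEF2). In neurons both stages are regulated, through eIF2 kinases, the 4E-BP inhibitors of eIF4E and the eEF2 kinase. The isoform eEF1A2 is that of mature neurons and muscle, while eEF1A1 is widely expressed.

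Values are RPKM, reads scaled to gene length and sequencing depth, so levels of different genes can be set side by side. Folds and their standard errors are on the log2(RPKM + 1) scale, IP over Input, from limma across the 12328 genes that reached 1 RPKM in 3 of the 6 libraries. A call is an adjusted p (Benjamini-Hochberg over these genes) under 0.05. Summed RPKM lay between 374708 and 496125 per library, and the absolute depth is unknown. Oligodendrocyte markers were called lower in IP for 6 of 7 genes, and their summed level was 238 to 282 RPKM in IP and 763 to 823 RPKM in Input. Of the 6 neuronal markers listed, 5 were analysed here and 0 were called by limma, also at an unadjusted p under 0.05, and their summed level overlapped, with 2656 to 6135 RPKM in IP and 3478 to 4832 RPKM in Input. Summed astrocyte markers were 14.3 to 35.7 RPKM in IP and 27.8 to 47.2 RPKM in Input, with 0 of 5 called by limma and 2 at an unadjusted p under 0.05. Microglial markers summed to 1.15 to 3.05 RPKM in IP and 3.73 to 8.71 RPKM in Input (0 called, 1 gene tested). Blood markers summed to 202 to 567 RPKM in IP and 14.1 to 50.3 RPKM in Input, and the 3 hemoglobin genes among the 4 listed were called higher in IP. The part of these cells in the results on translation factors was not tested. A marker level in IP against Input compares the RNA caught with the antibody to the total RNA, and does not count cells.

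As a class, translation factor genes were abundant, and 62 of the 63 tested did not pass the test between the IP and Input fractions. Their median level was 37.7 RPKM in IP and 34.0 RPKM in Input, against 7.71 RPKM in IP and 8.71 RPKM in Input over all entries. Eef1a1 ranked 30th of all entries in IP and 17th in Input by mean RPKM. Of the 63 genes tested, 1 was called higher in IP and 0 lower by limma, against 0.892% of all genes called higher and 3.29% called lower, or 4.19% in either direction. With the warm challenge as a replicate block the counts were again 1 and 0, against 1.33% and 3.99% of all genes. At an unadjusted p under 0.05 there were 5 higher and 7 lower, where 5.04% of all genes were higher and 19.3% lower. The median log2 fold was -0.08, beside -0.18 over all genes tested, and 48 of the 63 folds were smaller than 0.5 in size, as were 8406 of the 12328 over all genes. After scaling the libraries to equal medians, the median of all genes was -0.02, and 121 genes were called higher and 128 lower, against 110 and 406 without that scaling. In 9 genes all 3 IP libraries stood above all 3 Input libraries, a pattern of 6.85% of all genes, and in 10 genes all IP libraries stood below, a pattern of 23.5% of all genes. Within the challenges, 12 genes were higher in IP in all 3 pairs, against 14% of all genes, and 23 were lower in all 3, against 37.5%. Between the stages, initiation factors with their kinases and inhibitors had a median log2 fold of -0.01 (51 genes tested, 0 called by limma). The 6 elongation factors had one of -0.12 with 1 call. At an unadjusted p under 0.05, 4 of the 51 were higher and 4 lower. Of the 6 elongation factors, 1 was higher and 2 lower, beside the same 5.04% and 19.3% of all genes.

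**Figure D1:**
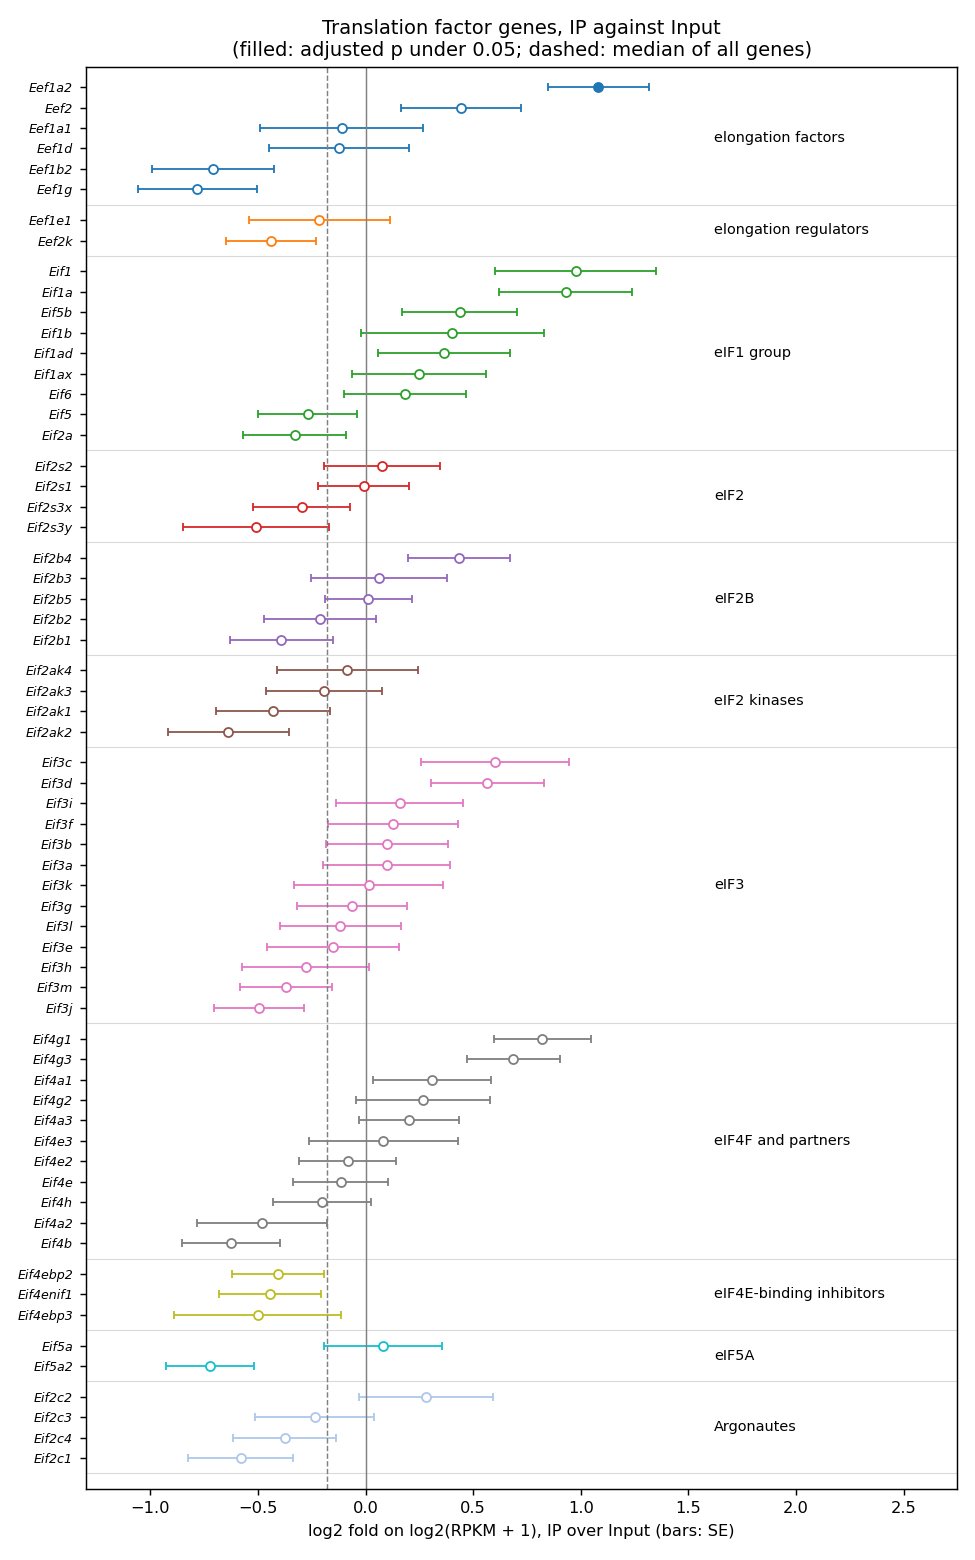
Log2 fold of each translation factor gene tested, IP over Input on the log2(RPKM + 1) scale, grouped by role, with points for the limma estimate and bars for its standard error. The filled point, Eef1a2 at 1.08, passed an adjusted p of 0.05, the dashed line marks the median of all genes at -0.18, and genes of most groups lie on both sides of it.

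Among elongation factors, the neuronal isoform Eef1a2 was higher in IP while its widely expressed paralog Eef1a1, which does the same step, overlapped between the fractions. Eef1a2 stood at 170, 176 and 195 RPKM in IP 1, 2 and 3, against 77.5, 77.8 and 100.0 RPKM in Input 1, 2 and 3. Every IP library was above every Input library. The log2 fold was 1.08 (SE 0.24, limma adjusted p = 0.0421), or 0.0395 with the warm challenge as a replicate block, and within the challenges it was 1.13, 1.17 and 0.96. The call ended after quantile normalization (adjusted p = 0.0700) and in 5 of 6 omissions of 1 library, with adjusted p of 0.103 and 0.110 without IP 2 and IP 3, and 0.183, 0.188 and 0.0861 without Input 1, 2 and 3. The fold itself stayed between 1.02 and 1.20 in these omissions. Beside this, the 5 general neuronal markers analysed had a median log2 fold of 0.09, with 0 called by limma. Within each challenge Tubb3 (log2 fold 0.52) was higher in IP, and Stmn2 (-0.53) and Elavl4 (-0.19) were lower. Markers of GABAergic neurons summed to 1099 to 1282 RPKM in IP and 829 to 1052 RPKM in Input. Of these 3 genes, 0 were called by limma and 2 were higher at an unadjusted p under 0.05. Oligodendrocyte markers were lower in IP, as given above. The glutamatergic marker Slc17a6 had 37.4, 16.5 and 15.6 RPKM in IP 1, 2 and 3, against 22.4, 13.3 and 10.04 RPKM in Input 1, 2 and 3, higher in IP within each challenge (log2 fold 0.53, adjusted p = 0.427). The part of these cell types in the Eef1a2 result was not tested. Muscle also uses eEF1A2, and the single muscle marker analysed here, Acta1, stood at 2.04 to 5.03 RPKM in IP and 3.11 to 7.33 RPKM in Input.

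Eef1a1 was the most abundant translation factor in every library. It had 1169, 1062 and 880 RPKM in IP 1, 2 and 3, against 1353, 1220 and 833 RPKM in Input 1, 2 and 3. The IP libraries lay within the range of the Input libraries (log2 fold -0.11, SE 0.38, adjusted p = 0.897), and the fold was 0.08 after median scaling. Both genes encode nearly the same protein, and how the authors treated reads shared between close copies is not given in the sources used here. A ratio within a library does not depend on how libraries are scaled. Eef1a2 made up 0.146, 0.166 and 0.221 of the Eef1a1 level in IP 1, 2 and 3, against 0.0573, 0.0638 and 0.120 in Input 1, 2 and 3. The ratio was thus higher in every IP library than in any Input library, by 2.30-fold on average (log2 difference 1.20, two-sided exact permutation p = 0.10, the smallest that 3 against 3 allow, and 0.167 adjusted over 5 paralog ratios).

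The start regions of this pair are shown because Eef1a2 carries the single call and Eef1a1 does not differ beyond its spread. Sequences are those of RefSeq (GRCm38.p6), which held a promoter window of 250 bases before to 50 after the start for 51 of the 64 genes. The following are the 250 bases upstream of each start, on the minus strand, at chr2:181157016-181157265 for Eef1a2 and chr9:78481725-78481974 for Eef1a1.
Eef1a2: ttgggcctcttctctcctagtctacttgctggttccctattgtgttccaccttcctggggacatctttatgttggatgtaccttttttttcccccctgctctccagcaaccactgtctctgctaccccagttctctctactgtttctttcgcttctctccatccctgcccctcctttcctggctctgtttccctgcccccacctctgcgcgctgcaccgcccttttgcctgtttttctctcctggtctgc
Eef1a1: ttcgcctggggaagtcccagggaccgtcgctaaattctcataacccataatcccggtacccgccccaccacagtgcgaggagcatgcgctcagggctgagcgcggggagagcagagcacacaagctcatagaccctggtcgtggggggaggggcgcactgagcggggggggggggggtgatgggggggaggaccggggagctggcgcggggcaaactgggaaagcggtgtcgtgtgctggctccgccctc
On the strand of the gene, C and T made up 76.8% of the Eef1a2 stretch and 40.4% of the Eef1a1 stretch. The median over all RefSeq genes with a window was 50%. G and C made up 54% of the Eef1a2 stretch and 68% of the Eef1a1 stretch, with a median of 52% over the same RefSeq genes.

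The subunits of eEF1B, which exchange GDP for GTP on eEF1A, had lower means in IP for Eef1g and Eef1b2 and close means for Eef1d. Eef1g, the scaffold subunit, had 235, 215 and 187 RPKM in IP 1, 2 and 3, against 365, 430 and 308 RPKM in Input 1, 2 and 3. All IP libraries were below all Input libraries (log2 fold -0.78, SE 0.28, limma adjusted p = 0.125). Eef1b2, a nucleotide exchange subunit named after its values were seen, averaged 64.5 ± 6.67 RPKM in IP and 109 ± 33.1 RPKM in Input (SD, n = 3 each), with overlap only through Input 3 at 71.4 RPKM (log2 fold -0.71, adjusted p = 0.163). Eef1d, the other exchange subunit, averaged 26.1 ± 9.31 RPKM in IP and 28.1 ± 8.25 RPKM in Input. None of these 3 genes passed the adjusted threshold, while the unadjusted limma p was 0.0187 for Eef1g and 0.0319 for Eef1b2.

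Eef2, the translocase, had 405, 305 and 276 RPKM in IP 1, 2 and 3, against 213, 247 and 257 RPKM in Input 1, 2 and 3. The IP libraries were above the Input libraries without overlap, most of all in challenge 1 (log2 fold 0.44, SE 0.28, adjusted p = 0.364). Eef2k, the kinase that phosphorylates and slows eEF2, was scarce, with 1.22, 1.79 and 1.32 RPKM in IP and 2.09, 2.49 and 2.32 RPKM in Input. Its IP values were all below its Input values (log2 fold -0.44, SE 0.21, adjusted p = 0.228). Eef1e1, a component of the multi-tRNA synthetase complex in spite of its name, averaged 33.2 ± 11.2 RPKM in IP and 39.2 ± 13.6 RPKM in Input (adjusted p = 0.732).

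**Figure D2:**
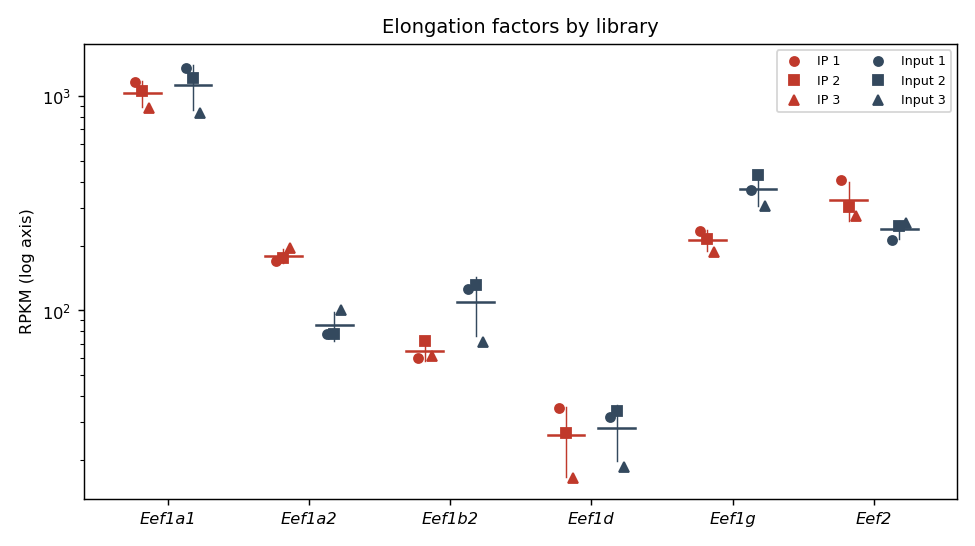
RPKM of the 6 elongation factor genes on a log axis, with IP libraries in red left of Input libraries in blue-grey, a symbol per warm challenge, horizontal bars for the mean and vertical bars for the SD (n = 3 each). Eef1a2 stands higher and Eef1g lower in all IP libraries, with means of 180 and 213 RPKM in IP against 85.1 and 368 RPKM in Input, while Eef1a1 overlaps.

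Many messages of this machinery are known in mammals to begin with a terminal oligopyrimidine (TOP) tract, a C followed by a run of C and T bases at the cap, through which mTOR signalling controls their translation. Of 9 genes listed as TOP messages (Eef1a1, Eef1b2, Eef1d, Eef1g, Eef2, Eif3e, Eif3f, Eif3h and Eif4b), 0 were called by limma in either direction and 3 were lower at an unadjusted p under 0.05, where 19.3% of all genes were. The median log2 fold of the list was -0.15, beside -0.18 over all genes. The RefSeq starts were searched for a C followed by at least 4 bases that are C or T. This was found in 2 of the 51 genes with a window, or 3.92%, and in 3.01% of all RefSeq genes with a window. The bases from 10 before to 20 after the start follow for these 2 genes and for the eEF1A pair, with the run of C and T from the start in capitals. Eif3f lies at chr7:108934405-108934434 on the plus strand, Eif2s3x at chrX:94212632-94212661, Eef1a2 at chr2:181156996-181157025 and Eef1a1 at chr9:78481705-78481734 on the minus strand.
Eif3f: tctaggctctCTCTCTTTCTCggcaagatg
Eif2s3x: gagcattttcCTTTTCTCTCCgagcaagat
Eef1a2: cctggtctgcgttctcgctcactggttctc
Eef1a1: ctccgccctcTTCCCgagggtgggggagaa
Eif3f and Eif2s3x carry runs of 11 bases, Eef1a1 has 5 with no C at the annotated start, and Eef1a2 has 0. An annotated start may miss the cap by some bases, so a missing match says only that these letters are not at this position. Eif3f, an eIF3 subunit, averaged 83.3 ± 15.7 RPKM in IP and 78.4 ± 25.4 RPKM in Input, and Eif2s3x, the gamma subunit of eIF2, 55.8 ± 9.97 RPKM in IP and 68.3 ± 6.01 RPKM in Input (SD, n = 3 each). Neither was called (limma adjusted p = 0.838 and 0.458).

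The 300-base windows were searched on both strands for the cAMP response element TGACGTCA, to which the activity-regulated factor CREB binds. It was in 1 of the 51 genes, or 1.96%. Among the 27025 RefSeq genes with a window, not limited to those tested by limma, it was in 2.03%. The match among the 51 genes was in Eef2, from base 3 after the start. It is in capitals in the stretch at chr10:81176621-81176650 on the plus strand.
Eef2: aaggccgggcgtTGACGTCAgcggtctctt
The E-box CACGTG was in the windows of 12 of the 51 genes, or 23.5%, against 8.09% of the 27025 RefSeq genes. TATAAA was in 5, or 9.80%, against 15.7%. Shares among genes expressed in this tissue were not computed. The E-box genes included Eef2, Eef2k, Eif4a1, Eif4e, Eif4g1 and both eIF5A genes, whose folds lay in both directions. No window was given for Eef1d, Eef1g, Eif1a, Eif2b3, Eif2c2, Eif3e, Eif3h, Eif3i, Eif4e3, Eif4ebp1, Eif4ebp3, Eif4g2 and Eif6.

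In the cap-binding complex, the scaffold genes Eif4g1 and Eif4g3 had higher values in all IP libraries, the helicase partner Eif4b had lower ones, and the cap-binding protein gene Eif4e was close to level. None of the 11 genes of this group was called by limma, and the median log2 fold was 0.08. At an unadjusted p under 0.05, 2 were higher and 1 lower, where 5.04% of all genes were higher and 19.3% lower. Eif4g1, which bridges the cap and the ribosome, had 46.5, 31.0 and 34.7 RPKM in IP 1, 2 and 3, against 19.8, 18.8 and 22.8 RPKM in Input 1, 2 and 3. All IP values lay above all Input values (log2 fold 0.82, SE 0.23, adjusted p = 0.0721, or 0.0611 with the replicate block). Eif4g3, its paralog, had 45.1, 44.5 and 53.7 RPKM in IP and 29.6, 25.1 and 33.6 RPKM in Input. It too did not overlap (log2 fold 0.69, SE 0.22, adjusted p = 0.0976). All IP libraries above all Input libraries was a pattern of 6.85% of all genes. Eif4g2, a divergent family member without the eIF4E-binding site, had 120, 204 and 255 RPKM in IP 1, 2 and 3 and 150 to 158 RPKM in Input, so that IP 1 lay below and the other IP libraries above all Inputs.

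Eif4b, which helps the helicase eIF4A unwind messages and was named after its values were seen, had 67.4, 50.7 and 46.3 RPKM in IP 1, 2 and 3, against 81.2, 87.7 and 83.1 RPKM in Input 1, 2 and 3. All IP libraries were below (log2 fold -0.62, SE 0.23, limma adjusted p = 0.138). Without IP 1 the gene was called lower (log2 fold -0.78, adjusted p = 0.0357), where 10.2% of all genes were. After median scaling its log2 fold was -0.44 (adjusted p = 0.329), and after quantile normalization -0.60 (adjusted p = 0.2285). Leaving out any other single library gave adjusted p from 0.251 to 0.372. Eif4e had 70.2, 86.3 and 87.4 RPKM in IP, against 81.2, 91.0 and 91.7 RPKM in Input (log2 fold -0.12, SE 0.22, adjusted p = 0.794, and a fold of 0.07 after median scaling). The helicase genes had folds of opposite sign. Eif4a2, the form abundant in brain, averaged 338 ± 67.7 RPKM in IP and 469 ± 71.0 RPKM in Input (log2 fold -0.48, adjusted p = 0.364). Eif4a1 averaged 183 ± 27.7 RPKM in IP and 149 ± 34.1 RPKM in Input (log2 fold 0.31, adjusted p = 0.531). The Eif4a2 to Eif4a1 ratio was 1.51, 2.36 and 1.73 in IP 1, 2 and 3, against 2.23, 3.47 and 4.16 in Input 1, 2 and 3. It was lower in IP within each challenge, while IP 2 overlapped with Input 1 (log2 difference -0.79, exact permutation p = 0.20, adjusted 0.25).

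Inhibitors that keep eIF4E from eIF4G had lower values in IP within each challenge for all 3 genes tested, with 0 called by limma and 0 at an unadjusted p under 0.05, and a median log2 fold of -0.44. Such a run of 3 lower pairs was seen in 37.5% of all genes. Eif4ebp2, the 4E-BP that predominates in brain, had 15.9, 18.1 and 18.3 RPKM in IP, against 25.8, 19.1 and 25.9 RPKM in Input (log2 fold -0.41, SE 0.21, adjusted p = 0.282). Eif4enif1, which shuttles eIF4E to the nucleus, averaged 16.9 ± 3.24 RPKM in IP and 23.3 ± 4.44 RPKM in Input (adjusted p = 0.284). Eif4ebp3, the third 4E-BP, had a log2 fold of -0.50 (adjusted p = 0.466). Eif4ebp2 and Eif4enif1 had every IP library below every Input library, a pattern of 23.5% of all genes. Eif4ebp1 was the single gene of the 64 that was too low to test, with 0.826, 1.02 and 0.875 RPKM in IP and 0.203, 0.875 and 0.500 RPKM in Input. Eif4ebp2 thus exceeded Eif4ebp1 by 17.7- to 20.9-fold in IP and by 21.8- to 127-fold in Input (exact permutation p = 0.10, adjusted 0.167), a ratio that rests on an Eif4ebp1 level near the lower end of the table. The log2 difference of -1.44 between the fractions was -0.80 without Input 1, -2.07 without Input 2 and -0.44 with a pseudocount of 5. The ratio of Eif4g3 to Eif4g1 was 0.971 to 1.55 in IP and 1.33 to 1.50 in Input (exact permutation p = 0.80).

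**Figure D3:**
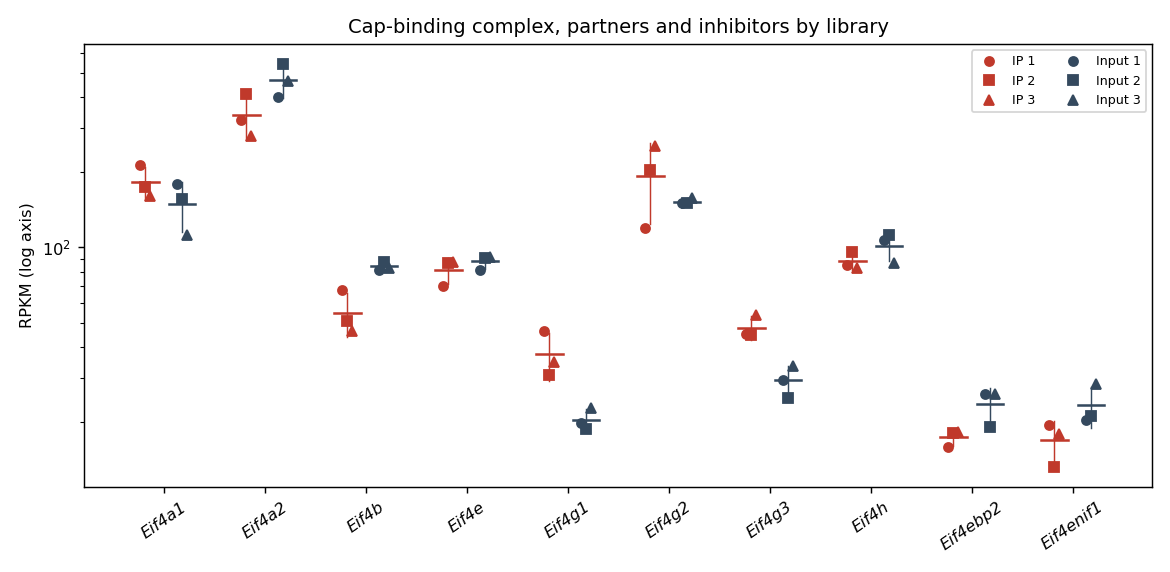
RPKM on a log axis of genes of the cap-binding complex, its partners and its inhibitors, with IP libraries in red left of Input libraries in blue-grey, a symbol per warm challenge, horizontal bars for the mean and vertical bars for the SD (n = 3 each). Eif4g1 and Eif4g3 lie higher and Eif4b, Eif4ebp2 and Eif4enif1 lower in all IP libraries, with Eif4g1 at 37.4 RPKM in IP and 20.5 RPKM in Input on average.

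Among genes for start codon selection and the joining of the ribosomal subunits, Eif1 and its relatives differed widely between the IP libraries. Of 9 genes, 0 were called by limma over the 6 libraries, and the median log2 fold was 0.36. At an unadjusted p under 0.05, 2 were higher and 0 lower, where 5.04% of all genes were higher and 19.3% lower. Eif1, which guards start codon choice, had 359, 797 and 694 RPKM in IP 1, 2 and 3, against 336, 326 and 236 RPKM in Input 1, 2 and 3. IP 2 and IP 3 stood far above the Inputs, whereas IP 1 was just above Input 1 (log2 fold 0.98, SE 0.37, adjusted p = 0.151). Eif1a, a partner of eIF1 on the small subunit, had 77.9, 169 and 149 RPKM in IP and 59.7, 67.0 and 69.6 RPKM in Input. The same 2 libraries were high (log2 fold 0.93, SE 0.31, adjusted p = 0.111, and 0.0707 with the replicate block). Without IP 1 both genes were called higher, as were 3.62% of all genes. Eif1 then had a log2 fold of 1.33 (limma adjusted p = 0.0312) and Eif1a one of 1.27 (adjusted p = 0.0131). Leaving out any other single library gave adjusted p from 0.312 to 0.331 for Eif1 and from 0.202 to 0.322 for Eif1a. Eif1b, a close copy of Eif1, had 130, 380 and 236 RPKM in IP and 195, 230 and 113 RPKM in Input, lower in IP in challenge 1 and higher in the other two. Eif1a and Eif1 have near-identical copies, Eif1ax and Eif1b, so their values are uncertain to the extent that reads were shared.

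Eif5b, which joins the ribosomal subunits, ran the other way. It had 46.4, 26.3 and 29.2 RPKM in IP 1, 2 and 3, against 21.8, 21.8 and 29.5 RPKM in Input 1, 2 and 3, so that IP 1 alone stood clear of the Inputs (log2 fold 0.44, adjusted p = 0.346). Eif5, the GTPase activator of eIF2, averaged 129 ± 11.0 RPKM in IP and 155 ± 10.3 RPKM in Input with no overlap (log2 fold -0.27, adjusted p = 0.514). Eif6, which keeps the large subunit apart, averaged 37.5 ± 10.5 RPKM in IP and 33.0 ± 9.45 RPKM in Input.

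eIF3, the initiation factor with the most subunits, had 13 genes in the table, 0 called by limma and a median log2 fold of 0.01. At an unadjusted p under 0.05, 1 was lower and 0 higher, against 19.3% and 5.04% of all genes. Eif3c, a core subunit, had 191, 85.5 and 74.6 RPKM in IP 1, 2 and 3, against 68.7, 71.4 and 70.2 RPKM in Input 1, 2 and 3. IP 1 held more than any other library, and IP 2 and IP 3 were a little above the Inputs (log2 fold 0.60, SE 0.34, adjusted p = 0.318). Eif3a, the large scaffold subunit, had 96.8, 50.2 and 50.4 RPKM in IP and 52.4, 54.7 and 69.6 RPKM in Input, with a log2 fold of 0.10 that was -0.21 without IP 1. Eif3d, a cap-binding subunit, had 67.1, 48.0 and 37.4 RPKM in IP and 35.5, 37.0 and 27.6 RPKM in Input, the IP libraries again being higher without overlap (log2 fold 0.56, SE 0.26, adjusted p = 0.222). Eif3j, the loosely bound subunit, had 17.8, 22.8 and 23.1 RPKM in IP and 27.6, 29.9 and 33.2 RPKM in Input, lower without overlap (log2 fold -0.49, SE 0.21, adjusted p = 0.188). The most abundant subunit gene, Eif3k, averaged 171 ± 43.5 RPKM in IP and 175 ± 63.7 RPKM in Input (adjusted p = 0.989). Eif3m, a further core subunit, averaged 56.4 ± 6.67 RPKM in IP and 72.9 ± 4.61 RPKM in Input, lower without overlap (adjusted p = 0.326), and the RNA-binding subunit gene Eif3b had a log2 fold of 0.10. Subunits of a single complex were thus spread over folds from -0.49 to 0.60, and none of these differences passed the threshold.

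**Figure D4:**
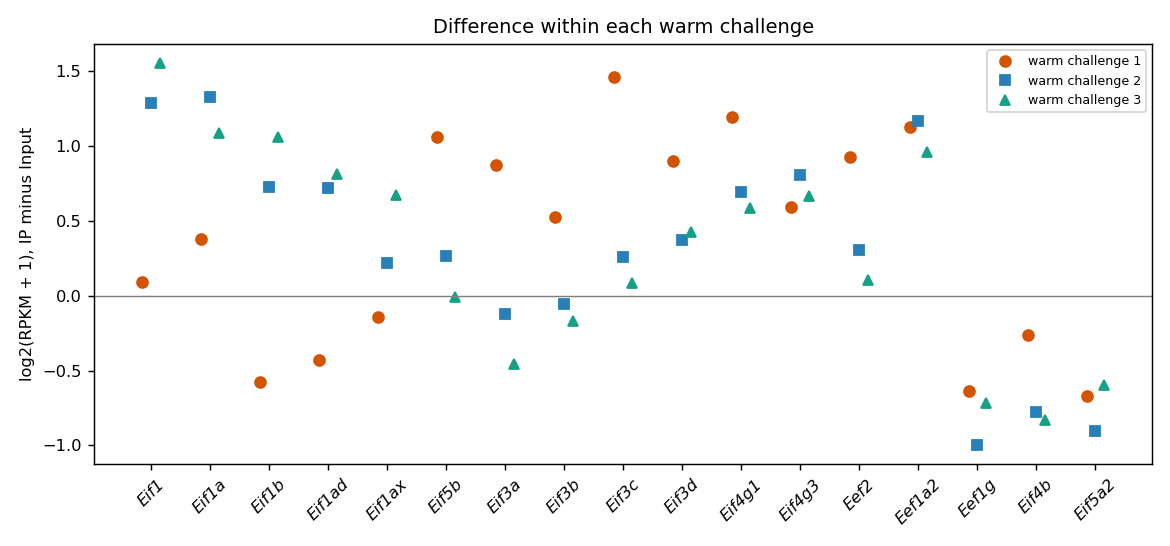
Difference between IP and Input of the same warm challenge on the log2(RPKM + 1) scale for 17 genes, with a symbol and colour per challenge. Eif1, Eif1b and Eif1ad are highest in challenges 2 and 3, Eif5b, Eif3a and Eif3c in challenge 1, and Eef1a2, Eif4g3, Eef1g and Eif5a2 have similar values in all 3.

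Much of both patterns followed IP 1, which also stood apart across the whole table: 1693 genes were called without it, against 21 to 94 without any other single library. In challenge 1 the log2 difference of IP from Input was 1.46 for Eif3c, 1.06 for Eif5b, 0.92 for Eef2, 0.90 for Eif3d and 0.87 for Eif3a. In challenges 2 and 3 it was 0.26 and 0.09 for Eif3c, 0.26 and -0.01 for Eif5b, 0.30 and 0.10 for Eef2, and -0.12 and -0.46 for Eif3a. Eif3d stayed positive there, at 0.37 and 0.42. Eif1 showed 0.09 in challenge 1, against 1.29 and 1.55 in challenges 2 and 3, and Eif1b showed -0.58, against 0.72 and 1.06. Without IP 1, 3 translation factor genes were called higher (Eef1a2, Eif1 and Eif1a, where 3.62% of all genes were) and 3 lower (Eif4b, Eif5a2 and Eif2c1, where 10.2% of all genes were). Among the neuronal markers, Snap25, which made up most of their sum, had 2063 RPKM in IP 1 and 2790 to 4144 RPKM in Input. Stmn2 had 212 RPKM in IP 1 and 329 to 438 RPKM in Input, and both genes were lowest in IP 1 of all libraries. Syt1 (101 RPKM) and Tubb3 (228 RPKM) were lowest in IP 1 among the IP libraries. They lay there within their Input ranges of 99.3 to 141 RPKM and 153 to 234 RPKM. Elavl4 in IP 1 (52.4 RPKM) lay between IP 3 (41.6 RPKM) and IP 2 (58.5 RPKM). The summed GABAergic markers were close in IP 1 (1282 RPKM) and IP 3 (1275 RPKM). Of these, Gad2 was highest in IP 1 (912 RPKM) and Gad1 in IP 3 (335 RPKM, against 311 RPKM in IP 1). Slc32a1 was lowest in IP 1 among the IP libraries (59.2 RPKM). The glutamatergic marker Slc17a6 (37.4 RPKM) was highest in IP 1. Among the IP libraries, summed astrocyte (35.7 RPKM) and microglial (3.05 RPKM) markers were highest in IP 1. Summed blood (202 RPKM) and oligodendrocyte (238 RPKM) markers were lowest there. Among the Input libraries, Input 1 had the highest astrocyte (47.2 RPKM), microglial (8.71 RPKM) and blood (50.3 RPKM) sums and the lowest oligodendrocyte sum (763 RPKM). The part of these markers in the patterns was not tested.

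Genes of eIF2 and its regulators gave no call. Median log2 folds were -0.15 for 4 eIF2 genes, 0.01 for 5 genes of its exchange factor eIF2B and -0.31 for 4 eIF2 kinases. Of these genes, 1 was lower at an unadjusted p under 0.05 by limma, where 19.3% of all genes were. Eif2s1, the subunit that stress kinases phosphorylate, averaged 27.5 ± 4.05 RPKM in IP and 27.5 ± 2.36 RPKM in Input (log2 fold -0.01, SE 0.21, adjusted p = 0.989, and 0.18 after median scaling). Eif2s2, the beta subunit, averaged 66.7 ± 15.2 RPKM in IP and 63.4 ± 14.3 RPKM in Input. Of the kinases, Eif2ak2 (PKR, activated by double-stranded RNA) had 4.75, 2.10 and 3.76 RPKM in IP and 7.04, 4.58 and 6.12 RPKM in Input. It was lower in IP within each challenge (log2 fold -0.64, SE 0.28, adjusted p = 0.199). Eif2ak1, the heme-regulated kinase, averaged 18.6 ± 4.68 RPKM in IP and 25.5 ± 7.01 RPKM in Input (adjusted p = 0.352). Eif2ak4 (GCN2, the amino acid sensor) had 6.79 RPKM in IP 1 but 2.42 and 2.41 RPKM in IP 2 and IP 3, against 3.51 to 4.31 RPKM in Input, and its log2 fold of -0.08 was 0.07 after median scaling and 0.18 after quantile normalization. In eIF2B, the exchange factor for eIF2, Eif2b4 averaged 11.7 ± 1.44 RPKM in IP and 8.54 ± 2.04 RPKM in Input without overlap (log2 fold 0.43, adjusted p = 0.298). Eif2b1 averaged 13.4 ± 2.50 RPKM in IP and 18.0 ± 4.18 RPKM in Input, and Eif2b2 21.3 ± 5.77 RPKM in IP and 24.3 ± 4.01 RPKM in Input.

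The eIF5A genes, whose protein carries the hypusine modification and relieves stalled ribosomes, differed within the pair. Eif5a2 had 16.5, 14.1 and 18.7 RPKM in IP 1, 2 and 3, against 26.9, 27.3 and 28.7 RPKM in Input 1, 2 and 3. All IP libraries were below, and the Inputs hardly varied (log2 fold -0.72, SE 0.20, limma adjusted p = 0.0746). The adjusted p was 0.0625 with the replicate block and 0.0467 without IP 1, where 10.2% of all genes were called lower. After median scaling the log2 fold was -0.54 (adjusted p = 0.174), and after quantile normalization -0.60 (adjusted p = 0.155). Leaving out any other single library gave adjusted p from 0.116 to 0.2455. Eif5a averaged 159 ± 38.4 RPKM in IP and 147 ± 17.4 RPKM in Input (log2 fold 0.08, adjusted p = 0.894). The Eif5a2 to Eif5a ratio was 0.145, 0.0788 and 0.102 in IP, against 0.164, 0.185 and 0.222 in Input. It was lower in all IP libraries (log2 difference -0.84, exact permutation p = 0.10, adjusted 0.167).

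**Figure D5:**
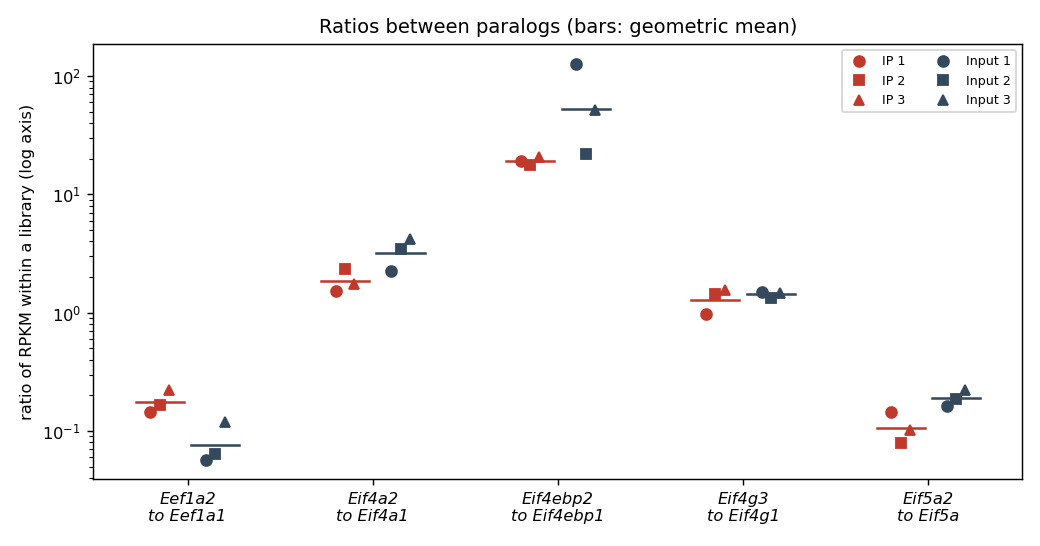
Ratio of RPKM between paralogs within each library on a log axis, with IP in red left of Input in blue-grey, a symbol per warm challenge and bars for the geometric mean (n = 3 each). The Eef1a2 to Eef1a1 ratio lies higher and the Eif5a2 to Eif5a ratio lower in all IP libraries, whereas the Eif4g3 to Eif4g1 ratio overlaps.

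The remaining 4 symbols match the rule by name alone, since Eif2c1 to Eif2c4 are older symbols of the Argonaute genes Ago1 to Ago4, which carry small RNAs and are not initiation factors. None was called. Eif2c1 had 11.5, 6.59 and 7.81 RPKM in IP and 12.3, 12.1 and 15.0 RPKM in Input, lower without overlap. Its log2 fold was -0.58 (SE 0.24, limma adjusted p = 0.184). The adjusted p was 0.0429 without IP 1, where 10.2% of all genes were called lower, and 0.324 to 0.399 without any other single library. After median scaling its log2 fold was -0.40 (adjusted p = 0.380). Eif2c2, the slicing Argonaute, had 57.6 RPKM in IP 1 and 24.3 and 31.5 RPKM in IP 2 and IP 3, against 24.3 to 32.1 RPKM in Input. Eif2c4 averaged 1.36 ± 0.63 RPKM in IP and 1.99 ± 0.11 RPKM in Input. Without these genes the count of calls and the median of translation factors (-0.08 over 59 genes) were as given above.

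Beyond the eIF and eEF symbols, a list of 39 other genes of translation and its control gave 2 genes called higher and 1 lower in IP, or 7.69% of the list against 4.19% of all genes, with a median log2 fold of 0.01 beside -0.18 over all genes. Larp1, which binds the cap of TOP messages downstream of mTOR, had 59.6, 123 and 165 RPKM in IP 1, 2 and 3, against 31.9, 33.0 and 40.5 RPKM in Input 1, 2 and 3. Even IP 1 was above all Inputs (log2 fold 1.58, SE 0.35, limma adjusted p = 0.0426). Pabpc4, a poly(A)-binding protein, had 17.8, 23.3 and 24.0 RPKM in IP and 8.17, 10.1 and 10.8 RPKM in Input, higher without overlap (log2 fold 1.09, SE 0.22, adjusted p = 0.0341). Paip2b, an inhibitor of poly(A)-binding protein, had 17.3, 13.5 and 14.5 RPKM in IP and 31.3, 30.8 and 30.9 RPKM in Input, lower without overlap (means of 15.1 ± 1.98 RPKM in IP and 31.0 ± 0.242 RPKM in Input, adjusted p = 0.0339). All 3 calls held without IP 1, with adjusted p of 0.00617, 0.0132 and 0.0131, and ended when any other single library was left out. Their highest adjusted p in these omissions was 0.171, 0.164 and 0.155, and that of Paip2b was 0.0711 after median scaling and 0.0639 after quantile normalization.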

How the data were processed

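The authors deposited a single table of RPKM per gene, untransformed, in which each library has its own column per the file headers. The submitters' processing notes name mm9 as the genome build. The aligner, the counting tool and its treatment of reads shared by close copies are not given in those sources. Every listed value is at least 0.101 RPKM. RPKM holds no counts, and the depth could not be recovered: at the best-matching relative depth, 14.4% to 17.2% of 448 to 565 low values per library came within 1% of whole-number ratios up to 4.

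Values were analysed as log2(RPKM + 1), which understates folds of low genes, with limma 3.58.1 (R 4.3.3, two-sided, trend on mean level) on all 6 libraries without a block. Ratios between paralogs were compared with two-sided exact permutation tests in scipy 1.17.1, and figures were drawn with matplotlib 3.10.9. Alternatives were pseudocounts of 0.1 and 5, no filter and a filter of 5 RPKM, median scaling, quantile normalization, no trend, a replicate block, and leaving out each library.

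IP and Input share the warm challenge number in the labels and were taken as paired on that ground. The correlation of deviations between the libraries of a pair was 0.0548, 0.612 and 0.272, and IP 1 correlated more with Input 3 (0.177) than with its own Input 1, so differences within challenge 1 rest on the label alone. The members and lists were chosen with earlier results of these data known. The text names genes past the threshold, 12 fixed genes, and in each role group those with the 2 smallest p and the highest level. Another 12 genes were added after their values were seen, namely Eef1b2, Eef1d, Eif1b, Eif3a, Eif3b, Eif3c, Eif3m, Eif4b, Eif4g2, Eif5, Eif5b and Eif6, besides Eif3f, Eif3e and Eif3h from the TOP list and Eif1ad and Eif4ebp3. All 64 symbols matched RefSeq, 5 of them as older symbols.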

Additional observations from a re-analysis of the deposited data

How the results depend on the processing

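The single call among translation factors kept its direction under every alternative run. With quantile normalization 0 genes were higher, since Eef1a2 had a log2 fold of 1.06 there (adjusted p = 0.0700), and under the other alternatives on all 6 libraries 1 was higher and 0 lower. Leaving out 1 library gave 0 to 3 genes higher and 0 to 3 lower, the 3 of each being those without IP 1, and a log2 fold of Eef1a2 from 1.02 to 1.20. The replicate block (adjusted p = 0.0395 for Eef1a2) changed no call among translation factors. The median log2 fold of translation factors was -0.11 with a pseudocount of 0.1, -0.01 with a filter of 5 RPKM, 0.08 after median scaling and 0.00 after quantile normalization, and -0.17 to 0.00 when 1 library was left out. Over all genes, median scaling moved the count of calls from 516 to 249 (121 higher and 128 lower, against 110 and 406), and quantile normalization gave 253 (129 higher and 124 lower). It was 1693 without IP 1 and 21 to 94 without any other single library.

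Folds near 0 turned. After median scaling they were 0.08 for Eef1a1, 0.06 for Eef1d, 0.07 for Eif2ak4, 0.18 for Eif2s1 and 0.07 for Eif4e, and after quantile normalization 0.18 for Eif2ak4, 0.08 for Eif2s1 and -0.02 for Eif3k. With 1 library left out, ranges that crossed 0 were -0.32 to 0.03 for Eef1a1, -0.38 to 0.16 for Eef1d, -0.48 to 0.12 for Eif2ak4, -0.34 to 0.03 for Eif2b2, -0.06 to 0.54 for Eif2c2, -0.10 to 0.10 for Eif2s1, -0.12 to 0.21 for Eif2s2, -0.21 to 0.25 for Eif3a, -0.17 to 0.35 for Eif3b, -0.33 to 0.22 for Eif3k, -0.03 to 0.30 for Eif5a, -0.03 to 0.38 for Eif6 and -0.28 to 0.06 for the log2 ratio of Eif4g3 to Eif4g1. The Eef1a2 to Eef1a1 difference stayed between 1.00 and 1.53. The cause of these changes was not tested. With 3 libraries a group, a missed threshold does not show equal levels.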

Other observations

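Translation factors took 1.26% to 1.53% of the summed RPKM in IP libraries and 1.25% to 1.30% in Input libraries, and the 6 elongation factors alone took 0.369% to 0.554% in IP and 0.413% to 0.456% in Input. The 9 genes of the group that holds Eif1, Eif1a, Eif1b, Eif5 and Eif5b, in which Eif1 was the most abundant, took 0.228%, 0.342% and 0.318% in IP 1, 2 and 3, and 0.186% to 0.203% in Input. Eif2s3y, the Y-linked copy of the eIF2 gamma subunit gene, was listed in every library, with 10.8, 10.1 and 3.97 RPKM in IP 1, 2 and 3, against 11.7, 13.3 and 9.34 RPKM in Input 1, 2 and 3. IP 3 had the least of it (log2 fold -0.51, SE 0.34, limma adjusted p = 0.390), and reads shared with Eif2s3x cannot be told apart here.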
